A study of Mus musculus with 6 samples.

Results

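The miR-200 family was followed in liver small RNA libraries of HFD-induced diabetic mice given JTXK granule or water. Its members were taken by name, as every entry of the table that begins with mmu-miR-200a-, mmu-miR-200b-, mmu-miR-200c-, mmu-miR-141- or mmu-miR-429-, on either arm of the hairpin. There were 7 such entries among the 1039 of the table, namely the 3p arms of all 5 miRNAs and the 5p arms of miR-200a and miR-200b. All 7 had a mean above 1 RPM (reads of the miRNA scaled to 1000000 miRNA reads of the library) in a group and were among the 548 miRNAs tested. Each group had 3 libraries, 1 per mouse, from wild type ICR mice, an outbred stock, at 30 weeks of age. Both groups had HFD for 12 weeks before gavage and throughout. For 8 weeks the J group received JTXK granule, a Chinese herbal formula, and the M group received sterile water. Chow-fed mice were not analysed here, so both groups carry the diet. The libraries held 2626353 to 4314134 miRNA reads.

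MicroRNAs of this family are known as markers of epithelial cells. Their best described targets are the transcription factors Zeb1 and Zeb2, which repress E-cadherin and other epithelial genes, and these factors in turn repress the family's genes. In the liver they are ascribed mainly to the epithelium of the bile ducts, while hepatocytes are a different epithelium dominated by miR-122. Small RNA libraries hold no mRNA of bile duct cells, so the cell type behind these reads was not measured, and in whole liver fewer cells of a type and less RNA per cell cannot be told apart. An miRNA pairs with its targets mostly through its seed, the bases from 2 to 8 of the mature strand.

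The mature sequences are shown to set the 2 seed groups of the 3p arms side by side. They are the RefSeq sequences of the GRCm38.p6 assembly, 5′ to 3′, with the seed in capitals. The first seed was carried by 3 of the 1679 mature mouse sequences of that table (0.179%), all of them family members:
mmu-miR-200b-3p: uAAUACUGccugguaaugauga
mmu-miR-200c-3p: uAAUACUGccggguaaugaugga
mmu-miR-429-3p: uAAUACUGucugguaaugccgu
The second seed was carried by 2 mature sequences (0.119%), and differs from the first by C4U when miR-200a-3p is compared with miR-200b-3p (positions counted from the 5′ end):
mmu-miR-200a-3p: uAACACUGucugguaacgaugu
mmu-miR-141-3p: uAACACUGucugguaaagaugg
The 5p arms of miR-200a and miR-200b had another seed in common, carried by no other mature sequence of the table:
mmu-miR-200a-5p: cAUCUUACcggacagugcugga
mmu-miR-200b-5p: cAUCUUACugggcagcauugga

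The family's genes lie in 2 clusters, and each cluster holds both seeds. On chromosome 4 of GRCm38, on the minus strand, lie Mir200b (156055681 to 156055750), Mir200a (156054896 to 156054985) and Mir429 (156053905 to 156053987). These 3 hairpins span 1846 bases within an intron of Ttll10, and GENCODE also places Mir429 in an exon, and Mir200a and Mir200b in an intron, of the noncoding transcript Gm13648. On chromosome 6, also on the minus strand, lie Mir200c (124718322 to 124718390) and Mir141 (124717914 to 124717985), 336 bases apart, in an intron of the antisense transcript Gm15884. Mir141 also overlaps an exon of Gm29008, which is annotated as a transcript still to be verified. In 2 pairs, members with a common seed but from different clusters are nearly identical. miR-200a-3p and miR-141-3p differed at 2 of 22 bases (from miR-141-3p to miR-200a-3p, A17C and G22U). miR-200b-3p and miR-200c-3p also differed at 2 of the first 22 bases (U11G and A22G). The other such pair, miR-200c-3p and miR-429-3p, differed at 5 of 22. The number of mismatches allowed when reads were assigned is not given in the sources used here, so the division of reads between the near-identical pairs is uncertain.

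One library stood apart before any comparison. In M group replicate 1, 33 of the 548 tested miRNAs with reads elsewhere were 4-fold or more above all other libraries, and 0 to 3 miRNAs were so in each of the other 5. That library was also the highest of the 6 for 6 of the 7 family members. It is also the only one whose library code carries another first number than the rest, and the sources used here do not say what that number stands for. Differences between the groups are therefore given with and without it.

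The most abundant member was mmu-miR-200b-3p. It had 453, 416 and 1168 RPM in J group replicates 1, 2 and 3 and 2163, 1219.9 and 575 RPM in M group replicates 1, 2 and 3. J group replicate 3 thus lay close to M group replicate 2, and M group replicate 3 lay close to the 2 low J libraries, so the groups overlapped. mmu-miR-200a-3p, from the same cluster but with the other seed, showed a like pattern, with 378, 466 and 1033 RPM in the J group and 1921, 945 and 473 RPM in the M group. Both had M group replicate 1 at the top, then J group replicate 3 and M group replicate 2, then M group replicate 3, with J group replicates 1 and 2 at the bottom. mmu-miR-429-3p, the third 3p arm of the cluster, was far less abundant, with 21.3, 22.3 and 43.5 RPM in the J group and 77.7, 51.0 and 22.3 RPM in the M group. Again J group replicate 3 was higher than M group replicate 3, and the groups overlapped.

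**Figure D1:**
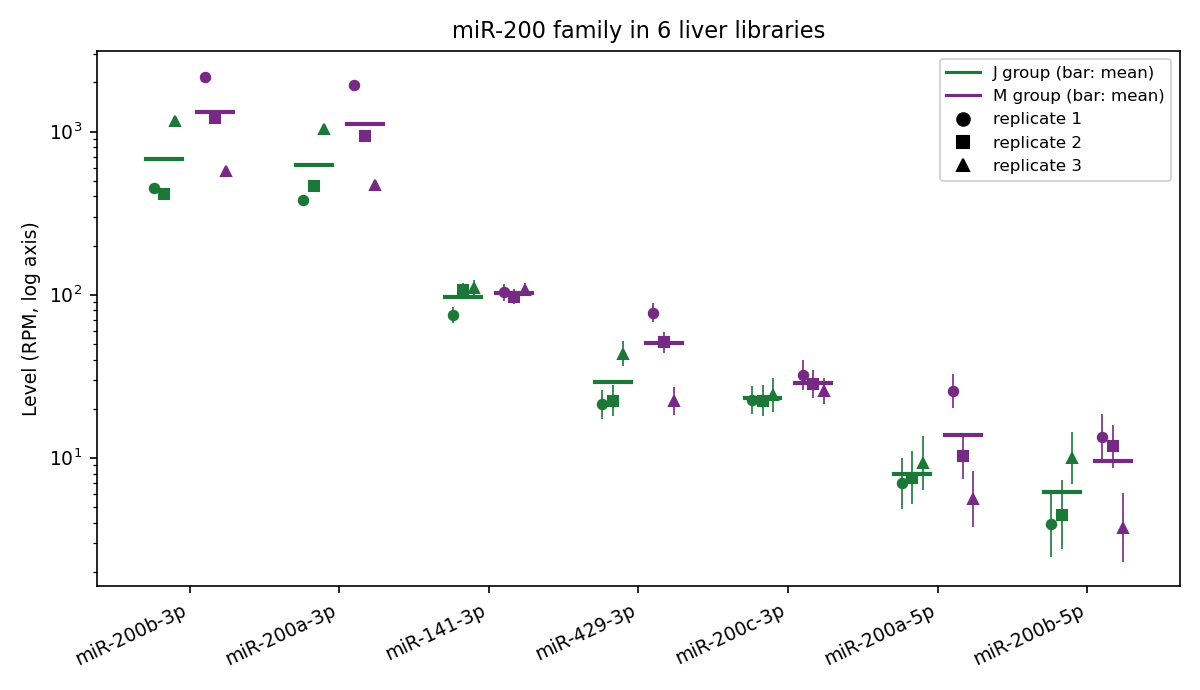
The vertical axis gives the level of each family member in RPM on a log axis, with J libraries in green, M libraries in purple, symbols for the replicate, horizontal bars for group means and vertical bars for 95% Wilson intervals. The 3p arms of miR-200b and miR-200a lie highest and spread over 5.21-fold and 5.08-fold, while miR-141-3p and miR-200c-3p stay within 1.47-fold and 1.45-fold.

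The members from chromosome 6 hardly varied. mmu-miR-141-3p had 74.9, 107 and 109.8 RPM in the J group and 103, 97.0 and 107 RPM in the M group. Apart from J group replicate 1, its libraries lay within a narrow band, and the highest library was a J library. mmu-miR-200c-3p had 22.7, 22.3 and 24.2 RPM in the J group and 32.4, 28.4 and 25.6 RPM in the M group. It was the only member whose J libraries all lay below its M libraries, which was the case for 9.31% of all 548 miRNAs. The gap rested on 68 reads in J group replicate 3 and 110 reads in M group replicate 3, whose 95% Wilson intervals reached from 19.1 to 30.7 RPM and from 21.2 to 30.9 RPM. Between those 2 libraries the difference was not detectable at this depth. Wilson intervals here cover counting error only, since PCR copies were not told apart.

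In the mean over the 6 libraries the order was miR-200b-3p (999 RPM), miR-200a-3p (869 RPM), miR-141-3p (99.8 RPM), miR-429-3p (39.7 RPM), miR-200c-3p (25.9 RPM), miR-200a-5p (10.9 RPM) and miR-200b-5p (7.86 RPM). Mature strands are of almost the same length, so these are reads of comparable molecules, though each sequence may be ligated with its own efficiency. The ranges of neighbours overlapped at every step of this order except between miR-200a-3p and miR-141-3p. Within every single library, though, miR-141-3p lay above miR-429-3p and miR-200c-3p above miR-200a-5p. The other overlapping neighbours changed order between libraries. The chromosome 4 cluster summed to 863, 916 and 2264 RPM in the J group and 4201, 2238 and 1079.7 RPM in the M group. The chromosome 6 pair summed to 97.6, 129.5 and 134 RPM in the J group and 136, 125 and 132 RPM in the M group. The first sum ranged over 4.87-fold and the second over 1.39-fold across the same 6 mice. Without M group replicate 1 the first still ran from 863 to 2264 RPM and the second from 97.6 to 134 RPM.

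This contrast in spread was much larger than counting error for the abundant members. The standard deviation of log2(RPM + 1) over the 6 libraries was 0.95 for miR-200b-3p, 0.90 for miR-200a-3p, 0.76 for miR-429-3p, 0.74 for miR-200b-5p and 0.71 for miR-200a-5p. It was 0.20 for both miR-141-3p and miR-200c-3p, and the median over all 548 miRNAs was 0.46. Of all miRNAs tested, 88.1% had a smaller standard deviation than miR-200b-3p and 8.21% a smaller one than miR-141-3p. Read counting alone would give about 0.028 for miR-200b-3p and 0.15 for miR-200c-3p on the same scale, so the spread of the latter was close to what counting gives.

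**Figure D2:**
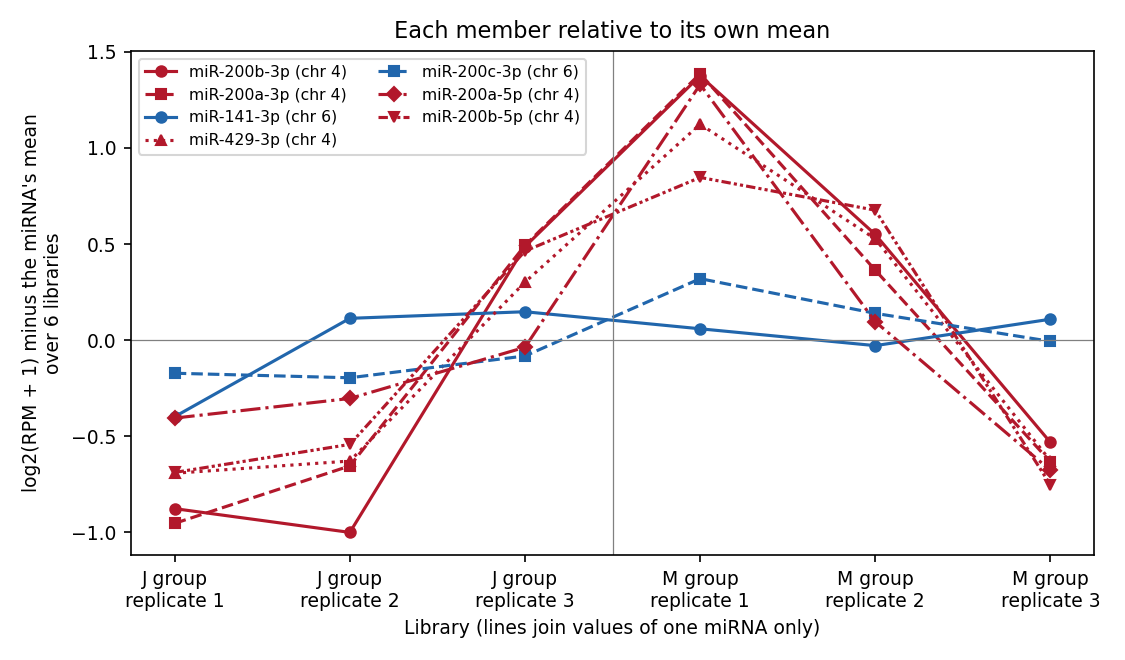
Each line gives log2(RPM + 1) of 1 member minus its own mean over the 6 libraries, red for the chromosome 4 cluster and blue for the chromosome 6 cluster, with J libraries left of the vertical line and M libraries right of it. The 5 red lines peak in M group replicate 1 and are low in J group replicates 1 and 2 and M group replicate 3, while the blue lines stay within 0.40 of 0.

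Members of the chromosome 4 cluster varied together from mouse to mouse. Over the 6 libraries Pearson's r of log2(RPM + 1) between its 5 members ranged from 0.82 to 0.99 (median 0.95, 10 pairs). Between members of different clusters it ranged from 0.17 to 0.88 (median 0.59, 10 pairs). miR-200c-3p and miR-141-3p, neighbours on chromosome 6, had r = 0.24. Both had a standard deviation of only 0.20, where counting alone would give 0.15 for miR-200c-3p and 0.078 for miR-141-3p. With so little spread beyond counting, this r cannot show whether the 2 vary together. miR-200c-3p had r = 0.76 to 0.88 with the 5 members of the chromosome 4 cluster, whether they carry its seed or not, though it moved over a far smaller range. These fell to 0.40 to 0.74 without M group replicate 1. Without M group replicate 1, r ranged from 0.76 to 0.99 (median 0.95) within the chromosome 4 cluster and from 0.11 to 0.74 (median 0.44) between the clusters. These values are descriptions over 6 or 5 libraries, in which all members share the depth and the scaling.

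Shares of reads within a pair need no scaling between libraries. miR-200a-3p took 45.5%, 52.8% and 46.9% of the reads of miR-200a-3p and miR-200b-3p in J group replicates 1, 2 and 3 and 47.0%, 43.6% and 45.1% in the M group. This share stayed within 1.21-fold while both miRNAs ranged over more than 5-fold, though an even share can range over fewer folds than a small one. It was not constant beyond counting error. The 95% Wilson interval of J group replicate 2 (51.1% to 54.6%) lay above those of all other libraries. miR-429-3p took 3.47% to 5.10% of the reads of miR-429-3p and miR-200b-3p. Across the clusters the shares moved far more. miR-141-3p took 16.5%, 18.7% and 9.60% of the reads of miR-141-3p and miR-200a-3p in the J group and 5.10%, 9.32% and 18.4% in the M group, a range of 3.67-fold. Within the J group the 95% Wilson intervals of replicate 3 (8.63% to 10.7%) and replicate 2 (17.1% to 20.5%) lay apart, which bears on counting error only. For miR-200c-3p and miR-200b-3p the share of the former was 4.78%, 5.10% and 2.03% in the J group and 1.47%, 2.28% and 4.26% in the M group. Within the chromosome 6 pair the share of miR-200c-3p was 17.2% to 23.9%. In each of these 5 shares the J group and the M group overlapped. The exact two-sided permutation test over the 6 libraries gave p = 0.3 to 0.4 (each 0.4 after Benjamini-Hochberg adjustment over 7 shares), where 3 against 3 libraries cannot give less than 0.1. The share of miR-141-3p against miR-200a-3p was 3.99 percentage points higher in the J group, and 1.07 points without M group replicate 1. That of miR-200c-3p against miR-200b-3p was 1.30 points higher, and 0.70 points without that library. That of miR-200c-3p against miR-141-3p differed by -2.42 points, and by -1.46 without it. Within the chromosome 4 cluster the differences were 3.18 and 0.656 points for miR-200a-3p and miR-429-3p against miR-200b-3p, and 4.06 and 0.519 points without it.

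**Figure D3:**
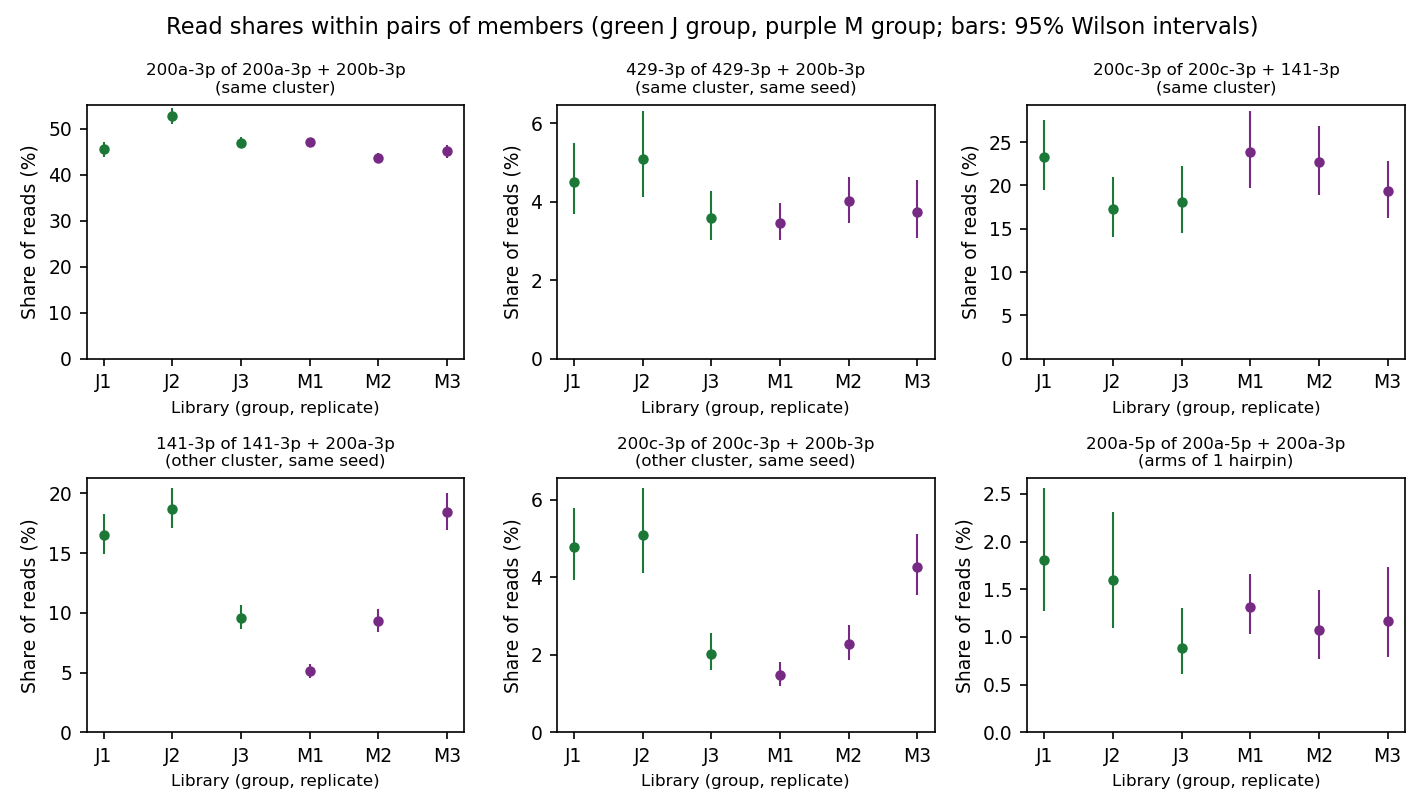
Each panel gives the share of reads of 1 member in a pair, in percent, by library (J1 to J3 in green, M1 to M3 in purple), with 95% Wilson intervals. The share of miR-200a-3p against miR-200b-3p stays within 1.21-fold, whereas that of miR-141-3p against miR-200a-3p lies anywhere from 5.10% to 18.7%. The 5p share of the miR-200a hairpin ranges over 2.03-fold.

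The seed groups were almost evenly loaded. The sum of miR-200b-3p, miR-200c-3p and miR-429-3p was 497, 460.3 and 1236 RPM in the J group and 2273, 1299 and 623 RPM in the M group. The sum of miR-200a-3p and miR-141-3p was 453, 573 and 1143 RPM in the J group and 2024, 1042 and 579 RPM in the M group. The ratio of the first sum to the second ranged from 0.804 in J group replicate 2 to 1.25 in M group replicate 2, and it was above 1 in the other 4 libraries. J libraries averaged 0.994 ± 0.165 (SD, n = 3) and M libraries 1.15 ± 0.0886 (SD, n = 3), and they overlapped (exact two-sided permutation test, p = 0.3). The log2 ratio differed by -0.22 between the groups, by -0.24 without M group replicate 1 and by -0.075 without J group replicate 2. In mean log2 RPM the first sum differed by -0.90 and the second by -0.68 between the J group and the M group (exact permutation test, p = 0.2 and p = 0.4), and without M group replicate 1 by -0.46 and -0.22. They differed by -1.39 and -1.12 without M group replicate 3 and by -1.36 and -1.07 without J group replicate 3.

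The 5p arms were minor strands. mmu-miR-200a-5p had 6.95, 7.54 and 9.27 RPM in the J group and 25.5, 10.3 and 5.59 RPM in the M group, from 24 to 67 reads. mmu-miR-200b-5p had 3.94, 4.47 and 9.98 RPM in the J group and 13.3, 11.7 and 3.72 RPM in the M group, from 16 to 40 reads. Each arm was highest in M group replicate 1 and lowest in M group replicate 3. Of the reads of the miR-200a hairpin the 5p arm took 1.43% ± 0.480 (SD, n = 3) in J libraries and 1.18% ± 0.119 (SD, n = 3) in M libraries. Of the miR-200b hairpin it took 0.924% ± 0.120 and 0.736% ± 0.188, in the same order. The differences were 0.244 and 0.189 percentage points (exact two-sided permutation test, p = 0.4 and p = 0.3), and the groups overlapped in both shares. Without M group replicate 1 they were 0.307 and 0.127 points. With each library left out in turn the first ran from 0.0563 (without J group replicate 1) to 0.514 points (without J group replicate 3), and the second from 0.119 (without J group replicate 2) to 0.297 points (without M group replicate 2). The largest and the smallest share of the miR-200a 5p arm, 1.81% in J group replicate 1 and 0.889% in J group replicate 3, both belonged to the J group.

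The comparison of the J group with the M group asks whether JTXK granule went with another level of the family in diabetic liver. By limma, which draws the variance of each miRNA towards the trend over all, none of the 7 members passed the thresholds (an absolute log2 fold change above 0.3 with an unadjusted p under 0.05 on log2(RPM + 1)), where 5.29% of the 548 miRNAs passed them. All 7 fold changes lay below 0, as did those of 58.9% of all miRNAs, and 5 of the 7 come from a single cluster. For mmu-miR-200b-3p the J libraries averaged 679 ± 424 RPM (SD, n = 3) and the M libraries 1319.6 ± 799 RPM (SD, n = 3). The log2 fold change was -0.93 (standard error 0.56, 95% interval -2.25 to 0.40, adjusted p = 0.71 from limma). The interval reaches from a large fall to a modest rise. For mmu-miR-200a-3p it was -0.74 (95% interval -2.07 to 0.58) and for mmu-miR-429-3p -0.68 (95% interval -1.86 to 0.50).
For mmu-miR-200b-5p the log2 fold change was -0.51 (95% interval -1.75 to 0.73) and for mmu-miR-200a-5p -0.50 (95% interval -1.69 to 0.69). mmu-miR-200c-3p, at 23.1 ± 1.01 and 28.8 ± 3.39 RPM, had -0.30 (95% interval -0.86 to 0.26). Whether this member passed depended on the test and the scaling. Its fold change, just past 0.3 here, was -0.20 after median-of-ratios scaling, -0.10 under quantile normalization, -0.21 by edgeR and -0.20 by DESeq2, all short of that threshold. With its own variance in place of the moderated one, a setting chosen after seeing the data, the standard error fell from 0.24 to 0.10 and miR-200c-3p passed (unadjusted p = 0.0401, adjusted p = 0.759 from limma without moderation), as did 5.84% of all 548 miRNAs. Its own spread within the groups, a standard deviation of 0.12, was below the 0.15 that read counting alone would give. mmu-miR-141-3p, at 97.3 ± 19.5 and 102 ± 4.96 RPM, had -0.092 (95% interval -0.66 to 0.47). Its sign turned with edgeR (0.016) and DESeq2 (0.024) on recovered reads and with scaling by the median of ratios (0.013) or by quantiles (0.078). The median over the 7 members was -0.51, and over all 548 miRNAs it was -0.13. That median over all miRNAs moved to -0.037 after median-of-ratios scaling and to 0.053 under quantile normalization, a shift of 0.19, while the fold changes of the members moved by 0.14 to 0.31 under quantile normalization.

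Without M group replicate 1 the fold changes came nearer to 0 and 0 of the 7 passed the thresholds, where 6.55% of the miRNAs tested without it did. They were -0.47 for miR-200b-3p, -0.24 for miR-200a-3p, -0.29 for miR-429-3p, -0.22 for both miR-200c-3p and miR-200b-5p, -0.086 for miR-141-3p and 0.042 for miR-200a-5p. Leaving out M group replicate 3, the lowest M library of the chromosome 4 cluster, moved all of them away from 0 except that of miR-141-3p (-0.061), and miR-200b-3p (-1.43) and miR-429-3p (-1.17) then passed the thresholds (adjusted p = 0.562 for both from limma), where 6.69% of all miRNAs did. Without J group replicate 3 miR-200b-3p passed as well (-1.40, adjusted p = 0.688 from limma), where 6.83% of all miRNAs did.

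**Figure D4:**
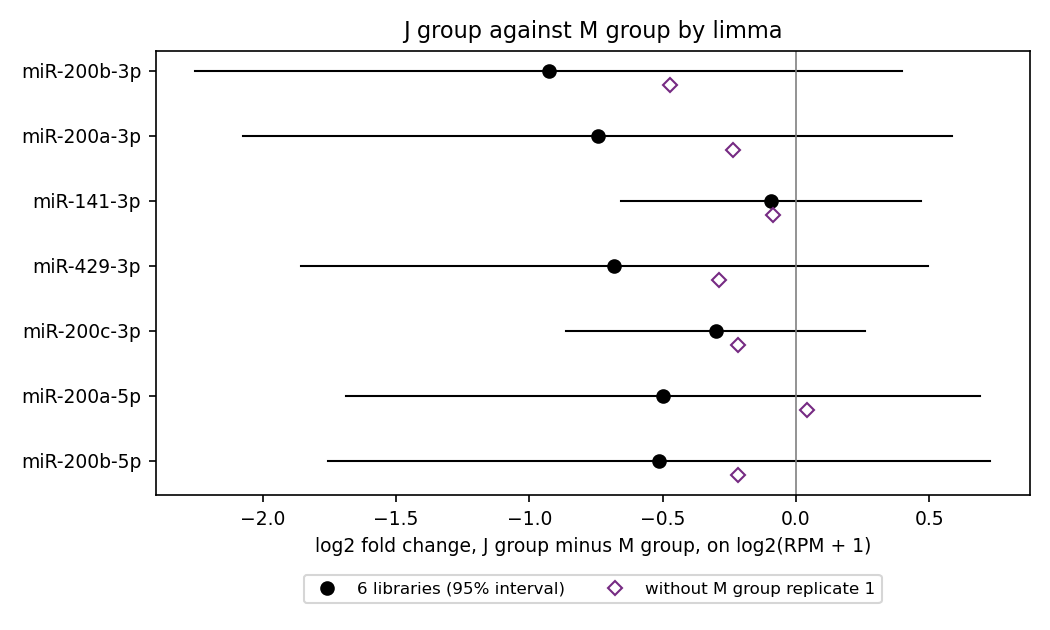
The horizontal axis gives the log2 fold change of the J group minus the M group on log2(RPM + 1), with black points and lines for the limma estimate and its 95% interval over 6 libraries and open diamonds for the estimate without M group replicate 1. Every interval crosses 0, and the diamond of miR-200a-5p lies at 0.042.

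The sums gave the same picture. The whole family summed to 1468 ± 807 RPM (SD, n = 3) in J libraries and 2637 ± 1580.1 RPM (SD, n = 3) in M libraries, a difference of -0.79 in mean log2 RPM (exact two-sided permutation test, p = 0.3). It was -0.34 without M group replicate 1, where the 2 other M libraries averaged 1788 RPM. For the chromosome 4 cluster the difference was -0.83 (p = 0.3 by the same exact test) and for the chromosome 6 pair -0.14 (p = 0.6 by the same exact test). These were -0.36 and -0.11 without M group replicate 1. The first was -1.34 without M group replicate 3 and -1.28 without J group replicate 3, and the second turned to 0.0073 without J group replicate 1 and to 0.043 under quantile normalization. The test of the difference between the clusters is the ratio of their sums, which averaged 10.9 ± 5.23 (SD, n = 3) over J libraries and 19.0 ± 11.5 (SD, n = 3) over M libraries. The log2 ratio differed by -0.70 between the groups (exact permutation test, p = 0.4), and by -0.24 without M group replicate 1. The log2 ratio differed by -1.21 and the family sum by -1.26 without M group replicate 3. Over the 7 sums and ratios of clusters, seed groups and family, every Benjamini-Hochberg adjusted p was 0.467 or 0.6. So the 2 clusters were not shown to respond differently to JTXK granule, although the ratio itself ran from 7.07 in J group replicate 2 to 31.0 in M group replicate 1.

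Other miRNAs were set beside the family by lists for single cell types. Among 9 measured miRNAs known from other epithelia, 1 passed the thresholds, mmu-miR-96-5p, which was lower in the J group (log2 fold change -1.60, standard error 0.59, adjusted p = 0.71 from limma). The median of this list, -0.91, was the value of mmu-miR-375-3p, which lay at 0.762 to 14.2 RPM. mmu-miR-203-3p (0.29), mmu-miR-31-5p (0.13) and mmu-miR-34c-5p (0.19) lay above 0. Below the median were mmu-miR-182-5p (-1.42), mmu-miR-183-5p (-1.45) and mmu-miR-96-5p, all 3 from 1 cluster, and mmu-miR-449a-5p (-1.11). The last had 11.4 RPM in M group replicate 1 and at most 0.232 RPM elsewhere. mmu-miR-205-5p lay at -0.56. mmu-miR-203-3p, abundant in skin and other stratified epithelia, lay at 711 to 1101 RPM and was lowest in M group replicate 1, where the family was highest. mmu-miR-205-5p, typical of basal epithelial cells, had at most 10 reads in a library. For hepatocytes, 0 of 5 listed miRNAs passed, their median was -0.0042 and their sum in M group replicate 1 was 0.950 times the median of the other libraries. In the same library the 6 immune miRNAs summed to 4.31 times, the 9 miRNAs of other epithelia to 1.91 times, the 5 stromal miRNAs to 1.50 times and the family to 3.58 times the median of the other 5 libraries, while the chromosome 6 pair stood at 1.05 times. The rise for other epithelia there came from mmu-miR-96-5p (1533 RPM), mmu-miR-182-5p (1117 RPM) and mmu-miR-183-5p (415 RPM). mmu-miR-203-3p and mmu-miR-375-3p were lowest there, and mmu-miR-31-5p, mmu-miR-34c-5p and mmu-miR-205-5p were neither highest nor lowest. The immune sum there was carried by mmu-miR-142a-5p, at 3709 RPM against 525 to 961 RPM elsewhere, and mmu-miR-142a-3p, at 444 RPM against 25.3 to 47.0 RPM. mmu-miR-223-3p (25.1 RPM) and mmu-miR-155-5p (3.43 RPM) were not raised in that library, mmu-miR-150-5p was highest there (47.2 RPM against 25.8 to 38.7 RPM), and mmu-miR-342-3p (554 RPM) was higher in M group replicate 2 (665 RPM). The immune list summed to 763 to 1108 RPM in the J group and 1383 to 4782 RPM in the M group, with 1 of 6 passing the thresholds, mmu-miR-342-3p, which was lower in the J group. Of the stromal list, 3 of 5 passed, mmu-miR-199a-5p, mmu-miR-214-3p and mmu-miR-145a-5p, all lower in the J group, and this list summed to 13325.5 to 17628 RPM in the J group and 17425 to 26220.4 RPM in the M group. Beside these counts stand the 5.29% of all 548 miRNAs that passed and the 9.31% whose J libraries all lay below their M libraries. For endothelial and erythroid cells 0 of 1 and 0 of 3 passed. Of the 3 pancreatic acinar miRNAs 1 was abundant enough to be tested and did not pass, and the list summed to at most 11.6 RPM. None of the immune miRNAs was at 0 in any library. Adjusted p from limma was 0.432 for miR-199a-5p, 0.710 for miR-214-3p and miR-145a-5p, and 0.643 for miR-342-3p. The part of these cells in the family's levels was not tested.

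The 3 miRNAs whose pattern was most like the summed family came from another cluster. Likeness was ranked by Pearson's r of log2(RPM + 1) with the family sum over the 6 libraries, among the 276 other tested miRNAs with a mean of at least 10 RPM. The first 3 were mmu-miR-182-5p (r = 0.95), mmu-miR-183-5p (r = 0.95) and mmu-miR-96-5p (r = 0.92), each with Spearman's rho of 0.94. Their mature strands lie on chromosome 6 of GRCm38 between 30165962 and 30169732, on the minus strand and far from Mir200c and Mir141. These miRNAs are known from sensory and other epithelial cells. The rest of the list of other epithelia did not share 1 pattern. In M group replicate 1, mmu-miR-449a-5p was highest and mmu-miR-203-3p and mmu-miR-375-3p were lowest. There mmu-miR-31-5p, mmu-miR-34c-5p and mmu-miR-205-5p were neither. mmu-miR-182-5p had 114, 218 and 487 RPM in the J group and 1117, 733 and 287 RPM in the M group, and mmu-miR-96-5p had 142, 271 and 605 RPM in the J group and 1533, 864 and 493 RPM in the M group. In both, as in the chromosome 4 cluster, J group replicate 3 was the highest J library and M group replicate 3 the lowest M library. mmu-miR-362-5p (r = 0.91) and mmu-miR-322-5p (r = 0.90), both from chromosome X, came next. Without M group replicate 1, r was 0.92 for both miR-182-5p and miR-183-5p, 0.86 for miR-96-5p, 0.79 for miR-362-5p and 0.76 for miR-322-5p. Without the 2 libraries farthest from the median of the family sum it was 0.94, 0.97 and 0.87 for the first 3 and 0.73 and 0.65 for the others. These likenesses were picked as the highest of 276 and are given as a description, with no test.

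**Figure D5:**
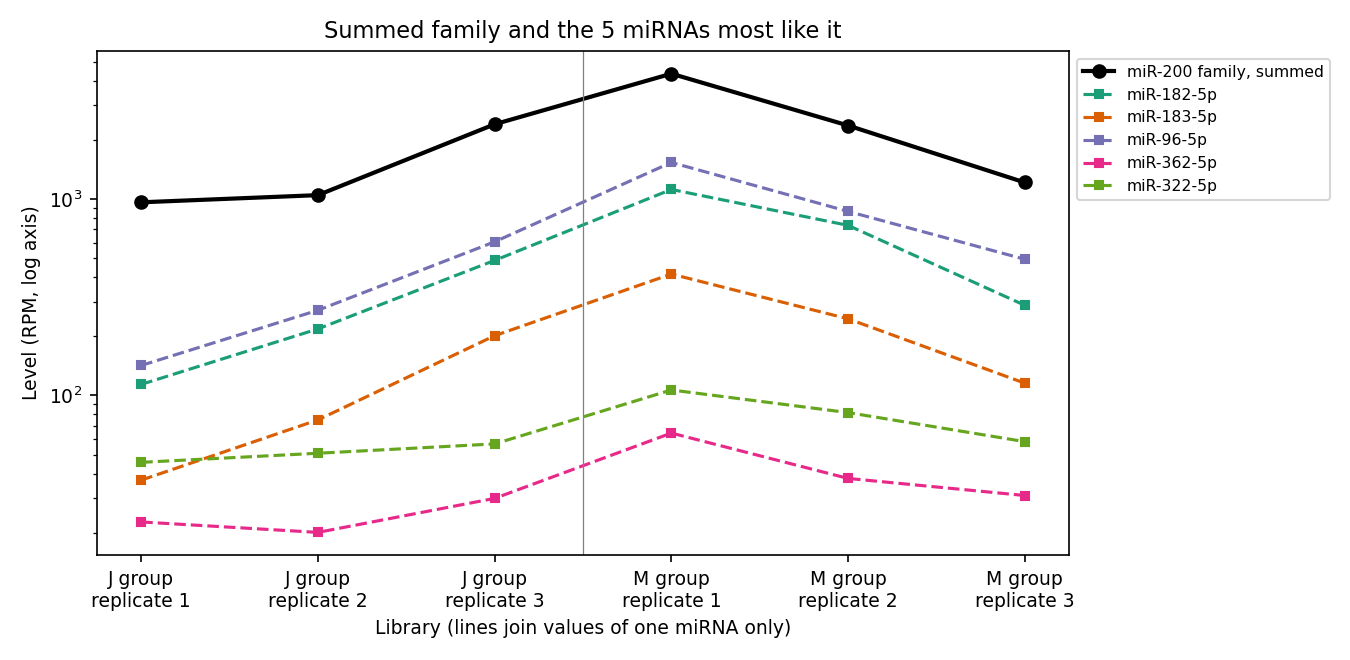
The vertical axis gives RPM on a log axis for the summed family (black) and the 5 miRNAs most like it (dashed), by library. The lines of miR-182-5p, miR-183-5p and miR-96-5p peak in M group replicate 1 as the family does, and are lowest in J group replicate 1.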

How the data were processed

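Per the study's methods, sequencing reads of small RNA were filtered by the authors, matched to Rfam and miRBase, and counted for known and predicted miRNAs. The submitters' processing notes name mm9. The deposited values are RPM, the reads of a miRNA scaled to 1000000 miRNA reads of its library, with the libraries kept apart. All values (100%) were whole multiples of the RPM of 1 read within 0.01 read, so reads were recovered. They held 2626353 to 4314134 reads per library, and 3 reads, the limit of a count of 0, correspond to 0.695 to 1.14 RPM.

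Groups came from the labels. J and M libraries were contrasted with limma 3.58.1 under R 4.3.3 (variance trend, two-sided) on log2(RPM + 1), which draws low miRNAs towards 0, over the 548 miRNAs with a mean above 1 RPM in a group, with Benjamini-Hochberg adjustment over all of them. Thresholds and filter are those of the study, which names no test for the sequencing. Sums, ratios and shares were compared by exact permutation over the libraries. Alternatives included edgeR 4.0.16, which called 45 of the 548 miRNAs on the recovered reads, and DESeq2 1.42.0. On simulated reads for the 548 miRNAs of this comparison, 200 of them changed, limma called 38.5% of 2-fold changes, 80.8% of 4-fold changes and 5.11% of the others. These are averages over miRNAs of all spreads. Each chromosome 4 member varied more than 76.3% to 88.1% of the miRNAs tested, so the averages do not give the power for those members. Members, lists and alternatives were chosen with earlier results of these data known. All family members are named, with the 5 miRNAs most like their sum and the list members that a result is set beside. Positions and sequences are those of RefSeq and GENCODE for GRCm38. None was taken from the table, whose build differs. In the table's names a suffix follows most miRNAs. The number after its L equals the RefSeq mature length for 526 of 530 entries, and the range after its R begins at 2 for miR-200b-3p and at 1 for the other members that have one. Its meaning is not given in the sources used here.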

Additional observations from a re-analysis of the deposited data

How the results depend on the processing

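No family member passed the thresholds over the 6 libraries or under other added values, filters, scalings, edgeR or DESeq2, while leaving out each library in turn gave 0 to 2 members, where 3.86% to 8.36% of all miRNAs passed. Limma without variance moderation, chosen after seeing the data, gave 1 member, miR-200c-3p. By edgeR, DESeq2 and limma alike, 0 of the 7 had an unadjusted p under 0.05 on all 6 libraries. With a filter at a mean of 10 RPM, miR-200b-5p could not be tested. Signs were kept under every alternative by 5 of the 7 members. That of mmu-miR-141-3p (-0.092) turned to 0.013 with median-of-ratios scaling, 0.078 with quantile normalization, 0.016 with edgeR and 0.024 with DESeq2, and with a library left out it ranged from -0.19 to 0.084 (the latter without J group replicate 1). That of mmu-miR-200a-5p (-0.50) ranged from -0.96 to 0.042, the latter without M group replicate 1. The difference in the family sum ranged from -1.26 to -0.34 with a library left out, that of the chromosome 6 pair from -0.22 to 0.0073, and the latter was 0.043 under quantile normalization. With 3 mice a group, intervals of over 1 log2 unit to either side remained for the chromosome 4 members.

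Replicate numbers are not known to pair the mice. Deviations of libraries with the same number correlated at 0.045, 0.058 and -0.0059 over the 548 miRNAs, and J group replicate 1 correlated best with M group replicate 3 (0.16). With the replicate block, 0 members passed, and 27 of all miRNAs did in place of 29.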
